A study of Rattus norvegicus with 4 samples.

Results

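The comparison described here was that of rat neural stem/progenitor cells on PUCL@CNT1 with the same kind of cells on bare PUCL, both in differentiation medium. It used 2 of the 4 libraries of the series, 1 on each platform. All cells were wild type. They were first grown on their platform for 24 h in stemness-maintaining medium, a knockout DMEM/F12 with StemPro Neural Supplement and antibiotics, and then for a further 1.5 days in B-27 Plus Neuronal Culture medium. The other 2 libraries came from the same platforms after the 24 h in maintaining medium only, and they are used here to set a second, separate pair of libraries beside the first. The series title describes PUCL@CNT as an electroconductive and mechano-competent nanohybrid scaffold for steering progenitors to neurons. The labels do not expand PUCL or CNT, and they do not say how many cultures or animals a library came from. Each library was made from 500 ng of total RNA with the Lexogen QuantSeq kit, which counts reads near the 3′ end of transcripts. The design text gives the aim as a comparison of expression before and after differentiation on the bare and the PUCL@CNT1 platform.

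Neural progenitors of the radial glia type divide while they express factors such as Sox2 and the filament proteins nestin and vimentin, and they share many transcripts with astrocytes. Growth factor withdrawal usually lets them leave the cell cycle and turn into neurons, astrocytes or oligodendrocytes. Entry into S phase depends on E2F factors that drive genes of the replication machinery, and on cyclins. Inhibitors such as p21, which the gene Cdkn1a encodes, hold cyclin-dependent kinases back, and DNA damage and other stress induce Cdkn1a together with Mdm2, Ccng1 and Zmat3.

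In differentiation medium, some DNA replication, mitosis and astrocyte genes were lower in the PUCL@CNT1 library than in the PUCL library, and some cell cycle inhibitor and damage response genes were higher. Among well-counted genes, 4 of 17 S phase, 2 of 19 G2 and mitosis and 4 of 9 astrocyte genes were lower, and 6 of 12 inhibitor and damage response genes were higher, by the size rule given below. Over all genes at that depth 3.71% were lower and 4.43% higher. S100b, a calcium-binding protein of astrocytes, was 5.32-fold lower (exact 95% counting interval 4.92 to 5.76). Mcm7, a subunit of the replicative helicase, was 2.66-fold lower (2.44 to 2.91). Cdkn1a was 2.51-fold higher (2.37 to 2.65). Igfbp5, a secreted binding protein of insulin-like growth factors, was 3.86-fold higher (3.68 to 4.05). Skeletal muscle transcripts were present in all 4 libraries, and most of the muscle genes compared were also higher on PUCL@CNT1 in this medium.

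With 1 library a side there is no spread between replicates, so the pair was described and not tested. A gene was called higher or lower when its scaled ratio was at least 2-fold and the nearer limit of its exact 95% interval lay beyond 1.5-fold. The intervals cover counting error only, and the reads carry no molecular identifiers in the sources used here. The PUCL library held 6580894 counts and the PUCL@CNT1 library 6855984. The rule was applied to the 9876 genes that reached 10 counts in either library. Of these, 1579 (16.0%) were higher on PUCL@CNT1, 1628 (16.5%) were lower and 32.5% were past the rule in either direction. The median log2 ratio over all genes compared was 0.02. Ribosomal RNA entries took 13.4% of the counts on PUCL and 8.49% on PUCL@CNT1, and the part of this gap in the results was not tested. In RNA from whole cultures, fewer cells of a type and less RNA per cell cannot be told apart.

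The share of genes past this size rule fell steeply with the counts behind them. It was 75.6% of 1658 genes with a mean under 30 counts, and 960 of those had 0 counts in 1 of the 2 libraries. It was 27.9% between 100 and 300 counts, 10.8% between 300 and 1000, 3.85% between 1000 and 3000, and 1.92% from 3000 counts upward. The standard deviation of the log2 ratios fell in the same order from 4.52 to 0.41. In the maintenance pair the shares were 70.1%, 21.7%, 4.57%, 0.867% and 0.593% in those classes. The gene groups below are therefore given over members with a mean of 300 or more counts, a limit chosen after seeing these shares. Of 3610 such genes, 160 (4.43%) were higher and 134 (3.71%) were lower on PUCL@CNT1 (8.14% in either direction), with 53.7% of all ratios above 0 on the log2 scale and a median of 0.05. Scaling to counts without ribosomal RNA lowers each log2 ratio by about 0.10, and the same genes then give 118 higher and 195 lower. At a mean of 100 or more counts, 447 of 6162 genes (7.25%) were higher and 558 (9.06%) lower. In the maintenance pair 27.8% of 9676 genes were past the rule in either direction. With 300 or more counts, 44 of 3578 (1.23%) were higher there and 72 (2.01%) lower, 3.24% in all.

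**Figure D1:**
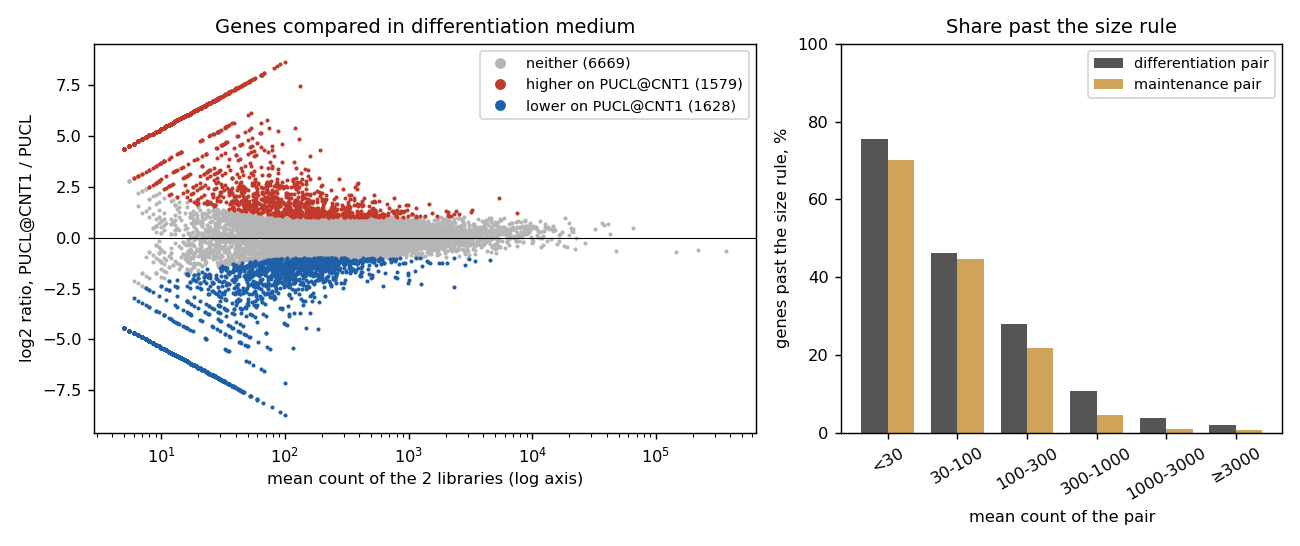
Left, the log2 ratio of PUCL@CNT1 to PUCL in differentiation medium (y axis) against the mean count of the 2 libraries (x axis, log scale), 1 point a gene, with genes past the size rule in red (1579 higher) or blue (1628 lower). Right, the share of genes past the size rule by mean count in the differentiation pair (grey) and the maintenance pair (ochre). The diagonal lines of points at the left are genes with 0 or few counts in 1 library, and the share falls from 75.6% to 1.92% in the differentiation pair.

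Among the S phase genes, 4 of 17 well-counted members were lower on PUCL@CNT1 and 0 were higher. Their median log2 ratio was -0.61, against 0.05 over all genes at that depth, and 2 of the 17 lay above 0. Under scaling without ribosomal RNA 5 were lower, Rrm2 being the added one, and 0 lay above 0. The helicase subunit Mcm7 had 1842 counts on PUCL and 711 on PUCL@CNT1. Pola1, the catalytic subunit of DNA polymerase alpha, went from 2104 to 898 counts (2.41-fold lower, 2.23 to 2.61). The licensing factor Cdt1 went from 700 to 347 counts (2.07-fold lower, 1.82 to 2.37). Ccne2, the cyclin that works with Cdk2 at the start of S phase, went from 715 to 327 counts (2.25-fold lower, 1.97 to 2.57). Below the 300-count limit, the helicase subunit Mcm5 had 391 counts on PUCL and 80 on PUCL@CNT1, a 5.03-fold lower level (3.94 to 6.48). Mcm2, Mcm3, Mcm6, Rrm1, Rrm2 and Pcna had log2 ratios from -0.98 to -0.50 without passing the size rule. Gins2 and Prim1 had log2 ratios of 0.04 and 0.02. Lig1, the DNA ligase that joins Okazaki fragments, stood outside the list and was named for its depth after its values were seen. It had 6152 counts on PUCL and 2975 on PUCL@CNT1, a 2.13-fold lower level (2.04 to 2.22).

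The G2 and mitosis genes lay mostly below 0 by smaller amounts. Of 19 well-counted members, 2 were lower and 0 higher, with a median log2 ratio of -0.45, and 1 of the 19 was above 0 (0 under scaling without ribosomal RNA). The 2 lower members act on the spindle. Tpx2, a spindle assembly factor, had 1027 counts on PUCL and 508 on PUCL@CNT1 (2.08-fold lower, 1.87 to 2.32). Nusap1, which binds spindle microtubules, had 1637 and 841 counts (2.00-fold lower, 1.84 to 2.18). The proliferation antigen Mki67 had 830 and 470 counts and a log2 ratio of -0.86, and Top2a, the topoisomerase of dividing cells, had -0.75. Cdk1, Cenpf and Ube2c, also of dividing cells, lay between -0.11 and 0.03. The mitotic kinase Pbk and the chromosome protein Cdca2 were among the 15 lower genes with the largest nearer limit at this depth. Pbk went from 795 to 207 counts (3.95-fold lower, 3.39 to 4.62) and Cdca2 from 743 to 172 (4.44-fold lower, 3.76 to 5.27).

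In maintenance medium the same lists lay closer to 0. The S phase median there was -0.11 with 1 of 18 members lower, and the G2 and mitosis median was -0.10 with 0 of 20 past the size rule in either direction. Mcm7 there had 1155 counts on PUCL against 1193 on PUCL@CNT1. Its log2 ratio was 1.54 lower in differentiation than in maintenance medium (95% counting interval of the change -1.71 to -1.37), a change that 1 library a group does not allow to be tested. Ccne2 and Mcm5 were below PUCL in maintenance medium as well, with log2 ratios of -1.04 and -1.62.

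The promoters of 3 of these lower genes are shown because promoters of replication and mitosis genes are known to carry cell cycle elements. The sequences are the 250 bases before the start in RefSeq (GRCr8), matched by symbol. Capitals mark the E2F-type motifs TTTCGCGC, TTTGGCGC, TTTCCCGC and TTTGCCGC, the CCAAT box CCAAT, and the cell cycle homology motifs TTTGAA and TTCGAA, each on either strand and with overlaps joined. Mcm5 lies at chr19:13488563-13488812 (plus strand), Mcm7 at chr12:22163179-22163428 (minus strand) and Nusap1 at chr3:127057045-127057294 (plus strand).
Mcm5: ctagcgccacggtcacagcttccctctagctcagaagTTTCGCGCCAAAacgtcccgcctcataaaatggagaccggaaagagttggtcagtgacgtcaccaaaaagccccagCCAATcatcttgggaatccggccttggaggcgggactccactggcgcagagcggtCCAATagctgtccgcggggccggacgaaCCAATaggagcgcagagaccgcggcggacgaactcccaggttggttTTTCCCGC
Mcm7: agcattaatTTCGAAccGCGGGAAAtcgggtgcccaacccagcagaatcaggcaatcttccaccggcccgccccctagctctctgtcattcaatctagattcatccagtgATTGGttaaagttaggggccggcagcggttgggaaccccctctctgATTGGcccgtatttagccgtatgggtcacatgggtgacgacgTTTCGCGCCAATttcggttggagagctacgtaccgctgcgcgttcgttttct
Nusap1: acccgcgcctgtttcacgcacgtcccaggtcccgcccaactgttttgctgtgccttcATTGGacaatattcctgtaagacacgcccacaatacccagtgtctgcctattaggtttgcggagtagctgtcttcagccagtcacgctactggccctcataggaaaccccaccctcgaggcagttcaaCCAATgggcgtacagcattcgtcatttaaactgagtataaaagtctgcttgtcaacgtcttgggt

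Mcm5 and Mcm7 hold E2F-type and CCAAT matches and Nusap1 holds 2 CCAAT matches. Not every lower gene had a match. Of other promoters read in the same way, that of Lig1, which was past the size rule, held 0 matches. Those of Mki67 and Top2a, both inside the rule, each held 6. Promoters were found for 21 S phase and 21 G2 and mitosis genes. An E2F-type match was in 38.1% of the S phase promoters, 4.76% of the G2 and mitosis promoters and 1.81% of all 27457 promoters of the table. A CCAAT box was in 61.9% of the S phase promoters, 81.0% of the G2 and mitosis promoters and 34.3% of all. A cell cycle homology match was in 57.1% of the G2 and mitosis promoters and 17.3% of all. A match describes the letters and is not a measured binding site.

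The cell cycle inhibitor and damage response list stood on the other side of 0. Of 12 well-counted members, 6 were higher on PUCL@CNT1 and 0 lower, with a median log2 ratio of 0.99, and 11 of the 12 lay above 0. Under scaling without ribosomal RNA 5 were higher and 10 lay above 0, Ccng1 falling just short of 2-fold at a log2 ratio of 0.98. Cdkn1a had 1810 counts on PUCL and 4664 on PUCL@CNT1. Mdm2, a ubiquitin ligase, had 321 and 855 counts (2.59-fold higher, 2.28 to 2.95). Ccng1, the cyclin G1 gene, had 1338 and 2905 counts (2.11-fold higher, 1.98 to 2.25). Bbc3, which encodes the pro-apoptotic protein Puma, had 170 and 486 counts (2.78-fold higher, 2.33 to 3.33). Zmat3, an RNA-binding protein gene, had 370 and 846 counts (2.22-fold higher, 1.97 to 2.52). Cdkn2b, which encodes the Cdk4 and Cdk6 inhibitor p15, had 638 and 1477 counts (2.25-fold higher, 2.05 to 2.47). All 6 of these genes were thus above PUCL by a factor between 2.11 and 2.78.

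The other members of that list did not move as one. Gadd45a and Btg2 had log2 ratios of 0.90 and 0.77, and Bax, Cdkn2a and Cdkn1b had 0.20, 0.25 and 0.01, all inside the size rule. Below the 300-count limit, Cdkn2c, which encodes the inhibitor p18, was 2.91-fold lower (2.36 to 3.62), and Sesn1, a stress protein, was 3.24-fold lower (2.06 to 5.25). Phlda3 and Plk2, which DNA damage also induces, were not in the list and were among the 15 higher genes with the largest nearer limit. Phlda3 had 123 counts on PUCL and 531 on PUCL@CNT1, and Plk2 had 255 and 898. Mcl1, the anti-apoptotic relative of Bcl2, was 3.89-fold higher (3.43 to 4.42). In maintenance medium the list median was 0.19 with 0 of 9 members past the size rule. Mdm2 had a log2 ratio of -0.31 there, and its change between media was 1.69 (1.40 to 1.97, not tested). Cdkn1a and Ccng1 had log2 ratios of 0.69 and 0.78 there.

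**Figure D2:**
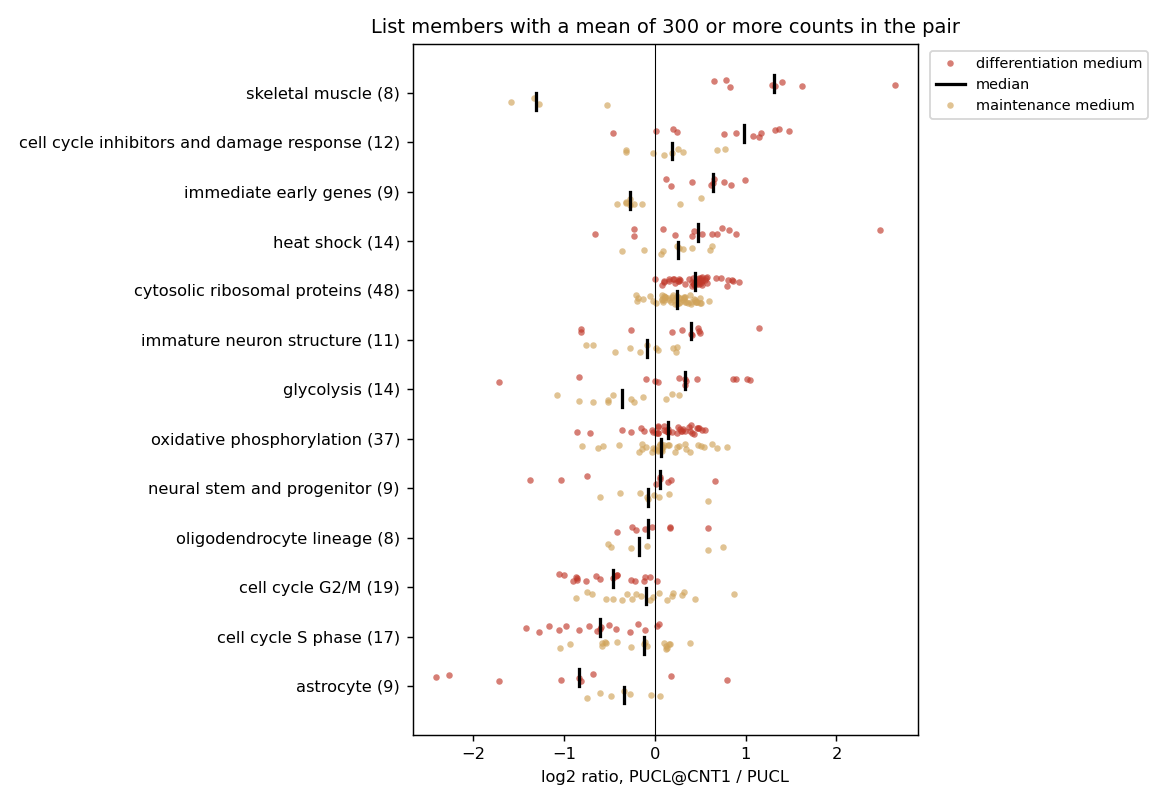
The log2 ratio of PUCL@CNT1 to PUCL (x axis) for the members of 13 gene lists with a mean of 300 or more counts, 1 point a gene, in differentiation medium (red) and maintenance medium (ochre), with black bars at the medians and the number of members in the differentiation pair in parentheses. In differentiation medium the cell cycle inhibitor and damage response list has its median at 0.99 and the S phase, G2 and mitosis, and astrocyte lists have theirs at -0.61, -0.45 and -0.83.

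Of 9 well-counted astrocyte genes, 4 were lower on PUCL@CNT1 and 0 higher, with a median log2 ratio of -0.83. S100b had 3939 counts on PUCL and 761 on PUCL@CNT1. Sparcl1, a secreted matrix protein of astrocytes also called hevin, had 2087 and 446 counts (4.81-fold lower, 4.34 to 5.34). Slc1a3, the glial glutamate transporter GLAST, had 4131 and 2075 counts (2.05-fold lower, 1.94 to 2.16). Aldoc, the brain form of aldolase, had 473 and 148 counts (3.29-fold lower, 2.73 to 3.98). The PUCL library in differentiation medium had the most counts of the 4 libraries for S100b, Sparcl1, Slc1a3 and Aldoc. Cst3, the secreted protease inhibitor cystatin C, had 57774 and 37219 counts and a log2 ratio of -0.67, inside the size rule. Glul, the glutamine synthetase, and Id3, an inhibitor of basic helix-loop-helix factors, had -0.81 and -0.83. Gja1 and Clu, a gap junction protein and a secreted chaperone, lay above 0 at 0.18 and 0.80. The summed level of the astrocyte list was 11363 CPM (counts scaled to the TMM library size) on PUCL and 6832 on PUCL@CNT1, and 6168 and 4029 in maintenance medium. Most of the sum in differentiation medium came from Cst3, which was inside the size rule. Gfap, a filament protein of astrocytes, had 31 and 0 counts, and Aqp4 had 12 and 0. In maintenance medium Gfap passed the size rule in the opposite direction.

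Other glial genes outside that list were among the 15 well-counted lower genes with the largest nearer limit. Elovl2, an elongase of polyunsaturated fatty acids, had 1033 counts on PUCL and 206 on PUCL@CNT1 (5.16-fold lower, 4.44 to 6.02). Slc4a4, a sodium bicarbonate cotransporter, had 1619 and 388 counts (4.29-fold lower). Ntrk2, the BDNF receptor TrkB, had 1230 and 328 counts (3.86-fold lower), and Ednrb, an endothelin receptor, had 802 and 214 (3.85-fold lower). Outside those 15, Crym, a thyroid hormone binding protein, had 4678 and 2167 counts (2.22-fold lower, 2.11 to 2.34). Crym stood at 377 and 397 counts in maintenance medium. Ucp2, a mitochondrial carrier, had 1971 and 876 counts in differentiation medium (2.31-fold lower, 2.14 to 2.51). In maintenance medium it had 95 and 43 counts, a log2 ratio of -1.06.

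Well-counted progenitor genes did not share 1 direction. Of 9 such members 2 were lower, 0 were higher and 6 lay above 0, with a median log2 ratio of 0.06. Under scaling without ribosomal RNA 3 lay above 0 and the median was -0.04. Of 12 members with a mean of 100 or more counts, 4 were lower and 0 higher, against 9.06% and 7.25% of all genes. Of all 17 compared, 7 were lower and 1 higher, against 16.5% and 16.0% of all genes. Nes had 3461 counts on PUCL and 3714 on PUCL@CNT1, and Fabp7, the fatty acid binding protein of radial glia, had 6921 and 7396. Vim was above PUCL at 31121 and 50754 counts, a log2 ratio of 0.67. Sox2 was below it at 6301 and 3879 counts, a log2 ratio of -0.74. Ptprz1, a receptor phosphatase of radial glia, was 2.59-fold lower (4099 and 1628 counts, 2.44 to 2.74). Slc1a3 is the other of the 2 lower well-counted members. Below the 300-count limit, Pax6, a progenitor transcription factor, had 246 and 19 counts (13.3-fold lower, 8.35 to 22.5). At 100 to 300 counts 27.9% of all genes were past the rule in either direction. Nes, Sox2, Vim, Fabp7 and Olig2 were thus well counted in both libraries, which are labelled as neural stem/progenitor cells.

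**Figure D3:**
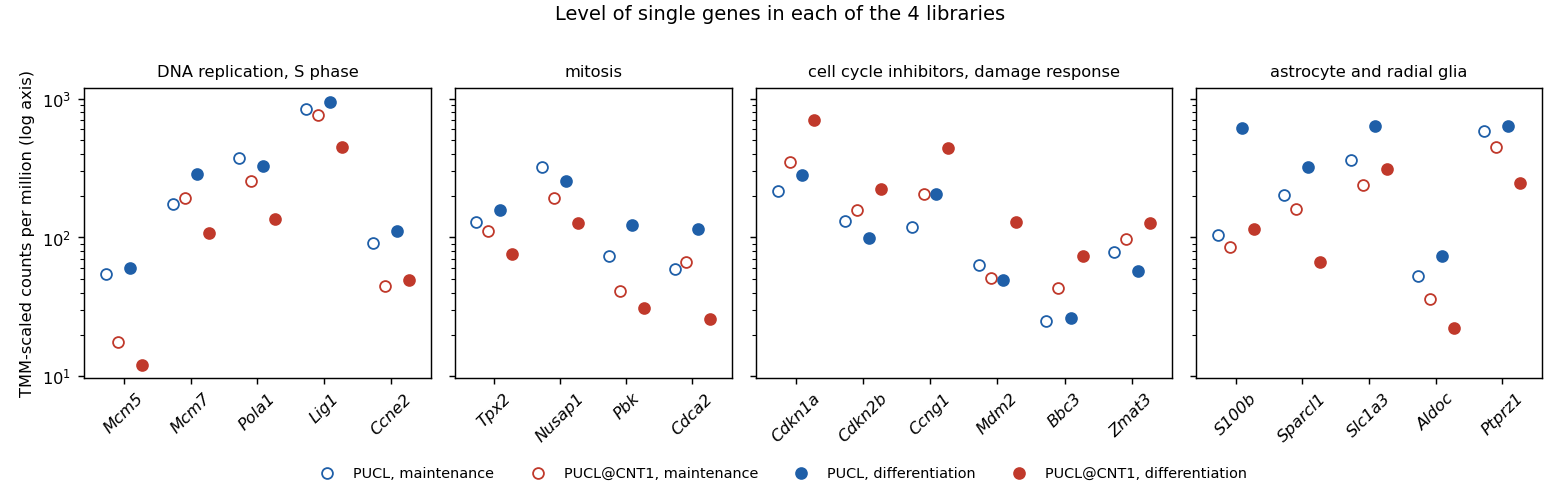
Scaled CPM (y axis, log scale) of single genes in each of the 4 libraries: PUCL in blue and PUCL@CNT1 in red, maintenance medium as open and differentiation medium as filled circles. Only genes past the size rule in differentiation medium were drawn, chosen after their values were seen, and list members inside the rule are not shown. By that choice the filled red point lies below the filled blue one for the replication, mitosis and astroglial genes. It lies above it for the 6 cell cycle inhibitor and damage response genes.

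Neuronal genes were mixed. Of 11 well-counted immature neuron genes 1 was higher and 0 lower, with a median log2 ratio of 0.40, against -0.08 in maintenance medium. Map1b, a microtubule-associated protein of growing axons, had 1564 counts on PUCL and 3576 on PUCL@CNT1 (2.22-fold higher, 2.09 to 2.36). Tubb2b, a tubulin of developing neurons, had 53812 and 76986 counts, and the growth cone protein Gap43 had 496 and 679. Their log2 ratios were 0.48 and 0.41. The RNA-binding protein gene Elavl4 and the dendritic Map2 lay below 0 at -0.82 and -0.81. Tubb3, the usual marker of young neurons, had 25 and 62 counts, and doublecortin, Dcx, had 79 and 61, so neither was well counted. Of 22 synapse and transmitter genes compared, 11 were lower and 1 higher, against 16.5% lower and 16.0% higher of all genes compared. At a mean of 30 to under 100 counts 46.2% of all genes were past the rule in either direction, and 75.6% under 30. Of the 22, 11 reached a mean of 100 counts, with 3 lower and 0 higher, and 6 reached the 300-count limit. Among those 6, the vesicle fusion gene Cplx2 was 3.08-fold lower (551 and 184 counts, 2.60 to 3.66), and the median was -0.18. Bcl11b, a neuronal transcription factor, was 3.77-fold higher (56 and 217 counts, 2.80 to 5.15), with 50 and 347 counts in maintenance medium.

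Oligodendrocyte lineage genes had no well-counted member past the size rule among 8, and a median of -0.07. Olig1 had 4144 and 4169 counts and Olig2 3063 and 2930. The myelin gene Mbp had 1194 and 1383 counts. All 3 had log2 ratios between -0.10 and 0.17.

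Skeletal muscle transcripts were found in all 4 libraries, and a textbook list of 46 muscle genes was added after this was seen. Of 29 list members compared, 17 were higher on PUCL@CNT1 and 0 lower, against 16.0% higher and 16.5% lower of all genes compared. Their median log2 ratio was 1.14. Of the 29, 25 lay above 0 and 4 below, Actc1 (294 and 186 counts) being 1 of the 4. Of 8 well-counted members 5 were higher, against 4.43% of all genes at that depth. Acta1, the skeletal muscle actin, had 702 counts on PUCL and 2222 on PUCL@CNT1 (3.08-fold higher, 2.83 to 3.36). Myh4, the myosin of fast fibres, had 1129 and 2852 counts (2.46-fold higher, 2.29 to 2.63), and the fast troponin Tnnc2 had 103 and 663 (6.26-fold higher, 5.08 to 7.78). In maintenance medium the order was the opposite, with 649 and 244 counts of Acta1, 1199 and 379 of Myh4, and 86 and 19 of Tnnc2. The summed level of the list was 830 CPM on PUCL and 1963 on PUCL@CNT1, and 840 and 364 in maintenance medium. The myogenic regulators Myod1, Myog, Myf5 and the satellite cell factor Pax7 had 0 counts in both differentiation libraries, and Myf6 had 0 and 24. Most of the muscle genes compared thus differed between the 2 libraries in the same direction as Tpm1, Tpm2 and Ldha below. Their part in those results was not tested. Tpm1 and Tpm2 also lay below PUCL in maintenance medium, at log2 ratios of -0.44 and -0.89.

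Markers of other cell types ranged from 0 counts to 3223 on PUCL and 2279 on PUCL@CNT1 for the smooth muscle actin gene Acta2. Of 18 microglia and macrophage genes, 13 had 0 counts in both libraries, among them Aif1, Csf1r, P2ry12 and Tmem119, and the list summed to 70.1 and 41.5 CPM. The endothelial genes Pecam1, Cdh5 and Vwf had 0 counts in both, and that list summed to 42.8 and 50.7. In the mural cell and fibroblast list, Dcn, Lum, Rgs5 and Thy1 had 0 counts, while the collagen genes Col1a1 and Col3a1 had 7 and 2 counts on PUCL and 88 and 65 on PUCL@CNT1. That list summed to 701 and 648 CPM, mostly from Acta2 and Tagln. The ependymal factor Foxj1 had 123 and 35 counts, and the choroid plexus gene Ttr had 1 and 5. The ependymal list summed to 103 and 30.8 CPM. All 4 of its members compared were lower on PUCL@CNT1, against 16.5% of all genes compared, but 0 reached the 300-count limit. At 100 to 300 counts 27.9% of all genes were past the rule in either direction, and more at lower counts. Among the 4, Ccdc39, a gene of motile cilia, had 320 and 81 counts but passed the rule as higher in maintenance medium. The part of these cell types in the results was not tested.

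All 48 cytosolic ribosomal protein genes had log2 ratios above 0 (46 of 48 under scaling without ribosomal RNA), with a median of 0.45 and a range from 0.00 to 0.93, and 0 passed the size rule. The median was 0.25 in maintenance medium, and 0.35 in differentiation medium when scaled to counts without ribosomal RNA. Reads of these genes can be shared with processed pseudogenes, so single values are uncertain. Outside the list, Rpl17 had 1188 and 2942 counts (2.41-fold higher, 2.25 to 2.58). Of 37 oxidative phosphorylation genes 29 lay above 0 (24 under scaling without ribosomal RNA), with a median of 0.15.

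All 9 well-counted immediate early genes, which neuronal activity and growth factors switch on within minutes, had log2 ratios above 0 under both scalings, with a median of 0.64, and 0 passed the size rule. Jun, a subunit of the AP-1 factor, had 1346 counts on PUCL and 2761 on PUCL@CNT1, a log2 ratio of 1.00 just under the 2-fold limit. Arc, which acts at synapses, had 489 and 774 counts. In maintenance medium the median of the list was -0.27, and Arc had 1424 and 1153 counts. Ccnd1, the cyclin that growth factors induce in G1, had 12271 and 24679 counts, a log2 ratio of 0.97 that also stayed under the limit, against -0.11 in maintenance medium.

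Of 14 well-counted heat shock genes 11 lay above 0, with a median of 0.47 and 1 member past the size rule. Hspa1b, an inducible Hsp70 gene, had 109 counts on PUCL and 626 on PUCL@CNT1 (5.59-fold higher, 4.55 to 6.91), and 104 and 449 in maintenance medium. Hspa1b has near-identical copies, so its reads may be divided among them. Of 14 well-counted glycolysis genes 2 were higher and 1, Aldoc, was lower, and without ribosomal RNA 0 were higher and 1 lower. Their median was 0.34, against -0.36 in maintenance medium. Ldha, the lactate dehydrogenase subunit, had 1417 and 3014 counts (2.07-fold higher, 1.94 to 2.20, and under 2-fold when scaled without ribosomal RNA). In the adhesion and actomyosin list 2 of 28 were higher, Tpm1 (907 and 2169 counts) and Tpm2 (362 and 803), which encode tropomyosins, and 1 was lower, Itgb5. The median of that list was -0.08. In the YAP and TEAD target list 1 of 4 well-counted members was higher and 0 lower, with a median of 0.69. That member was Wwtr1, which encodes the YAP partner TAZ, at 124 and 483 counts (3.79-fold higher, 3.10 to 4.65). Of all 14 compared, 3 were higher and 2 lower, against 16.0% and 16.5% of all genes. Prkcdbp, a caveola protein gene, had 1874 and 4573 counts, the galectin gene Lgals3 had 595 and 1692, and S100a10, a partner of annexin A2, had 4489 and 10565. These 3 were higher by 2.37-fold, 2.77-fold and 2.29-fold.

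The remaining pathway lists held few well-counted genes past the size rule. In the extracellular matrix list 1 of 14 was higher, Col18a1, a basement membrane collagen gene, at 641 and 1476 counts. In the Wnt list 1 of 4 was higher, the receptor gene Fzd1 (405 and 846 counts, under 2-fold without ribosomal RNA). The calcium signalling list had 1 of 9 lower, the calcium pump gene Atp2a2 (587 and 255 counts). In the lysosome and autophagy list 1 of 21 was lower, the mannosidase gene Man2b1 (684 and 314 counts). The cholesterol biosynthesis list had 1 of 15 higher, the sterol reductase gene Tm7sf2 (189 and 412 counts, also under 2-fold without ribosomal RNA). In the antioxidant list 1 of 22 was higher, Hmox1 (0 without ribosomal RNA), and in the hypoxia list 1 of 4, Adm, both described below. The FGF and EGF response, Notch, axon guidance, BMP and TGF-beta, proneural factor, ion channel, integrated stress response and endoplasmic reticulum chaperone lists had 0. All 4 well-counted members of the BMP and TGF-beta list lay below 0, with a median of -0.66.

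The highest well-counted ratios in this medium belonged to Nexn, an actin-binding protein gene, at 103 and 678 counts (6.40-fold higher, 5.20 to 7.95), then Tnnc2, Hspa1b and Mrpl23, a mitochondrial ribosomal protein gene, at 118 and 642 counts (5.29-fold higher, 4.34 to 6.49). Pmp2, a myelin protein gene, had 177 and 696 counts (3.82-fold higher) but 58 and 15 in maintenance medium. Inflammation and interferon genes had few counts. Of 21 compared, 10 were higher and 2 lower, against 16.0% higher and 16.5% lower of all genes compared. At a mean under 30 counts 75.6% of all genes were past the size rule in either direction. Of the 3 well-counted members 0 passed it. The interferon-induced genes Psmb8 and Mx2 had 0 counts on PUCL and 43 and 38 on PUCL@CNT1. The class I histocompatibility gene RT1-A1 had 159 and 60 counts.

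Few genes passed the size rule in the same direction in both media. Of 9036 genes compared in both pairs, 250 (2.77%) were higher in both media, 324 (3.59%) were lower in both, 264 (2.92%) were higher in differentiation and lower in maintenance medium, and 219 (2.42%) the reverse. Among 3213 genes with a mean of 300 or more counts in each pair, 3 (0.0934%) were higher in both, 8 (0.249%) were lower in both, and 8 (0.249%) had opposite directions. The 3 higher ones were Adm, Hmox1 and Msn, of which Adm alone passed under scaling without ribosomal RNA, with 9 lower in both and 7 in opposite directions. Adm, the vasoactive peptide adrenomedullin, had 1285 and 2862 counts in differentiation medium and 1274 and 3091 in maintenance medium. Hmox1, the heme oxygenase, had 750 and 1554 counts and 1272 and 3474. Msn, which links actin to the membrane, had 348 and 743 counts and 250 and 478. The 8 lower ones were Slc4a4, Col5a3, Btbd17, MGC94199, Ccne2, Atp2c1, Rabac1 and Cdc42bpb. The collagen gene Col5a3 had 1512 and 458 counts in differentiation medium and 1001 and 448 in maintenance medium. The 8 with opposite directions were Acta1, Myh4, Eno2 and Tm7sf2, higher in differentiation medium, and Incenp, Nup98, Siae and Uhrf2, lower in it. The difference between the media was not tested in any of them.

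**Figure D4:**
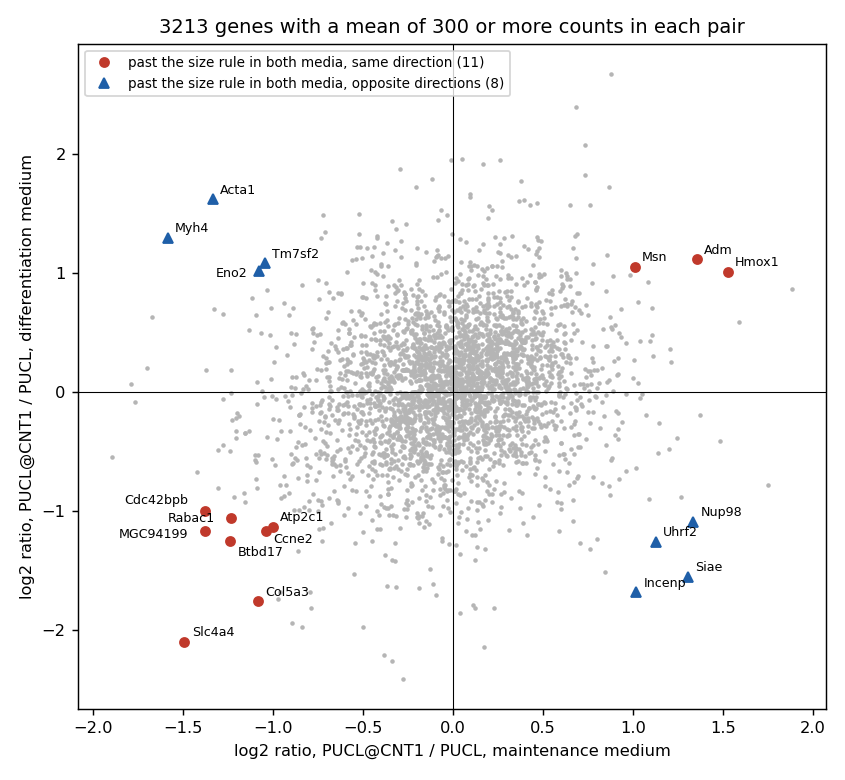
The log2 ratio of PUCL@CNT1 to PUCL in differentiation medium (y axis) against that in maintenance medium (x axis) for 3213 genes with a mean of 300 or more counts in each pair. Red circles are the 11 genes past the size rule in the same direction in both media, blue triangles the 8 past it in opposite directions, among them the muscle genes Acta1 and Myh4.

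A test was possible only over all 4 libraries, with the 2 media taken as repeats of 1 platform difference, so that a difference seen in 1 medium counts as spread. Of 10516 genes tested with edgeR's quasi-likelihood test, 22 (0.209%) rose on PUCL@CNT1 and 26 (0.247%) fell, at a Benjamini-Hochberg adjusted p of 0.05. Of these 48 genes, 33 also passed the size rule in differentiation medium in the same direction. Over all genes compared, 32.5% passed it in either direction. The fit used those same 2 libraries, so this overlap is no separate support. Adm (adjusted p 0.000325), Hmox1 (0.000622), Hspa1b (0.000991), Cdkn1a (0.0056), Igfbp5 (0.0263) and Ccng1 (0.0459) rose. The integrin subunit Itgb5 fell, with 994 and 301 counts in differentiation medium and 381 and 48 in maintenance medium (adjusted p 0.000252). Slc4a4 (0.000325), Btbd17 (0.00342), Peli2 (0.00472), Col5a3 (0.0056), S100b (0.00578), Tmem176b (0.00754), Clcn6 (0.00841), Ntrk2 (0.0102), Sparcl1 (0.0115), Ptprz1 (0.0256), Slc1a3 (0.0457) and Pola1 (0.0488) fell as well. Cst3 fell at an adjusted p of 5.02e-05 with log2 ratios of -0.67 and -0.74. The ribosomal RNA entries Rn45s, Rn28s and Rn18s were also among those that fell.

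These calls depended on how the fit was made. DESeq2 called 36 genes and limma-voom 87. edgeR called 0 genes when only those with a mean of 100 or more counts were fitted, with 541 at an unadjusted p under 0.05, and 0 when the medium was left out of the fit, with 388. Over the other fits tried, Itgb5 passed the threshold in 5 of 10 and Cdkn1a in 5 of 11, and Ccng1 and Elovl2 in 1 of 10. Igfbp5 had 1251 and 1179 counts in maintenance medium, so its difference lay in the differentiation pair.

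The genes with the largest ratios of all had no counts in 1 library and few in the other. A count of 0 was taken to allow 3 counts in each library. Against that floor Ttll1 (0 and 202 counts) was higher on PUCL@CNT1 by at least 65.5-fold, Cd59 (0 and 184) by at least 59.6-fold and Slx1b (0 and 174) by at least 56.4-fold. Kif28p (201 and 0) was at least 68.9-fold lower, Dlg3 (183 and 0) at least 62.7-fold and Mapk4 (156 and 0) at least 53.5-fold. In maintenance medium, Kif28p had 50 and 200 counts, Dlg3 had 50 and 113 and Mapk4 had 26 and 63, all higher on PUCL@CNT1. With 1 count in a library, the muscle gene Xirp2 had 1 and 265 counts, and Rom1 had 201 and 1. The other genes with the largest nearer limits were Slc30a7, Hspa2, Tmem192, Wdr73, Bcorl1 and Ttc33, at 0 counts on PUCL and 129 to 164 on PUCL@CNT1, and Zfp2, Pck1, Lppr5, Ntm, Ebf1 and Kcnn2, at 105 to 133 on PUCL and 0 on PUCL@CNT1. Ttll1, Cd59 and Slx1b kept their direction there, at 0 and 47, 7 and 60, and 53 and 123 counts. Of the 1579 genes higher in differentiation medium, 1229 could be compared in maintenance medium, and 628 of them (51.1%) had a ratio above 1 there, against 49.4% of all genes. Of the 1628 lower genes, 736 of 1301 (56.6%) had a ratio under 1, against 50.6% of all.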

How the data were processed

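Raw counts per gene symbol were deposited by the authors, 1 library a file. Per the labels' protocols the libraries were Lexogen QuantSeq 3′ libraries, and the submitters' processing notes list the aligner Bowtie2, the rat build rn6 and bedtools. Versions, annotation, strand setting and duplicate handling are not given in the sources used here. The totals were 6035848 to 6855984 counts per library.

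Rows sharing a symbol were summed (149 of 16881 symbols). Counts were scaled by TMM factors from the 4 libraries (edgeR 4.0.16, R 4.3.3), and log2 ratios used a prior count of 0.5. The pair was read by the size rule, with exact Clopper-Pearson intervals (SciPy 1.17.1). The platform term was fitted with edgeR's quasi-likelihood test, with platform and medium as terms and 1 residual degree of freedom, and with DESeq2 1.42.0 and limma 3.58.1 as alternatives. Scripts were tested on simulated data with less spread than these libraries, whose common dispersion in edgeR was 0.39. Those tests therefore do not give the error rates here. With no label on cultures or animals, p-values measure only the spread between these libraries. In the edgeR fit that spread was largely pooled over genes, with 87.2 prior against 1 residual degree of freedom. A gene's p-value thus rests little on the spread of that gene alone.

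The gene lists (36, with 874 of 912 entries found in the files) and the naming rules were chosen with earlier results of these data known. Genes were named from 5 rules and the first 4 symbols of each cell type list. The rules took the 10 genes with the largest nearer interval limit in each direction, and in each list the 2 past the size rule in each direction with the largest limit, or else the member with most counts. They also took the 10 with the smallest edgeR p among those past the size rule in both media and past the edgeR threshold, the 3 in each direction with most counts against 0, and the 5 in each direction with the largest change between media. Ribosomal RNA entries and symbols with several rows were left out of all but the list rule. Genes named for depth (the 15 with the largest nearer limit in each direction at a mean of 300 or more counts, all past the rule at 1000 or more), further list members and the muscle list were chosen after values were seen. Promoters come from RefSeq (GRCr8). A few genes that these rules name are not reported here.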

Additional observations from a re-analysis of the deposited data

Results flagged for a closer look

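The genes given here passed the size rule in both media, in opposite directions. With 1 library a group the difference between the media was not tested in any of them. Values are log2 ratios of PUCL@CNT1 to PUCL in differentiation medium.

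Higher in differentiation and lower in maintenance medium were the muscle genes Acta1 (1.62), Myh4 (1.30) and Tnnc2 (2.64) and the myelin gene Pmp2 (1.93), with 663 or more counts on PUCL@CNT1. The same held, with 201 or fewer counts in every differentiation library, for Atf5 (3.01), Atp6v1h (1.08), Col1a1 (3.52), Cspg4 (2.10), Gsta4 (2.38), Bdh1 (6.81), Cacna1b (6.53), Dpysl3 (6.11), Hspa2 (7.99), Mpped2 (6.95), Prox1 (5.89), Ropn1l (7.34), Slc30a7 (8.32), Tmem220 (6.40) and Usp51 (7.10).

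Lower in differentiation and higher in maintenance medium were Ccdc39 (-2.02, with 320 counts on PUCL), Adam4 (-7.49), Camk2d (-7.28), Cntrob (-7.05), Cplx1 (-6.05), Dcaf17 (-7.46), Dlg3 (-8.56), Dll1 (-3.48), Elavl3 (-5.08), Gfap (-6.02), Gli3 (-5.77), Kif28p (-8.69), Mapk4 (-8.33), Pclo (-6.81), Pdk1 (-7.52) and Stxbp4 (-7.16). Apart from Ccdc39, Dll1 and Cplx1, the genes of this second set had 0 counts on PUCL@CNT1 in differentiation medium. A fitted value against a count of 0 depends on the prior count of 0.5 and is no bound.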

How the results depend on the processing

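The counts of genes higher and lower were within 1.5 times of 1579 and 1628 under total counts, DESeq2 size factors, scaling without ribosomal RNA (1450 and 1811, so 44.5% of calls were higher instead of 49.2%), both other filters on low counts, a 99% bound and with repeated symbols left out. They were 447 and 558 at a mean of 100 or more counts, 160 and 134 at 300 or more, and 978 and 888 at 4-fold. At 1.5-fold they were 2412 and 2432. The platform term called 48 genes with edgeR, 36 with DESeq2 (730 genes with an adjusted p), 87 with limma-voom, 27 with total counts, 18 with DESeq2 size factors, 25 with no filter, 0 at a mean of 100 or more counts (541 at an unadjusted p under 0.05) and 0 with no medium term (388). With no medium term and 1 library left out, edgeR called 2, 9, 0 and 26 genes without PUCL maintenance, PUCL@CNT1 maintenance, PUCL differentiation (334 at an unadjusted p under 0.05) and PUCL@CNT1 differentiation. The lone library was then assumed to vary like the others, and the cause of these changes was not tested. Scaling without ribosomal RNA lowered the median log2 ratio by 0.10, and at 300 or more counts it took the higher calls from 160 to 118, ending among the genes named those of Ccng1, Eno2, Fzd1, Hmox1, Ldha, Msn and Tm7sf2 and adding Rrm2 to the lower ones, while it reversed no gene named by rule and past the size rule. No paired analysis was possible because each group holds 1 library and its replicate number pairs nothing beyond the medium, which the platform fit that called 48 genes already has as a term. Depth limits the pair most below 100 counts, where a library at 0 allows up to 3 counts.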
